A study of Rattus norvegicus with 12 samples.

Results

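The Bcl-2 family and the genes through which it acts on apoptosis were examined in RNA-seq of rat livers from a model of donation after circulatory death. The genes were chosen by name: Bcl2 and Bcl2l1, which protect cells, the pore formers Bax and Bak1, the trigger Bid, the death receptor Fas, Cycs (cytochrome c), Mcl1 and Bbc3. The values come from the rows of 33744 genes that carry these symbols, and 7 of the 9 genes have a row. Mcl1 and Bbc3 were not analysed here. All 7 passed the filter on low counts, together with 13687 genes in all, although Bcl2 did so with very few counts.

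Each of the 4 groups had 3 livers, 1 library per liver, all from male Sprague Dawley rats of 6 to 8 weeks, and every liver had 30 min of warm ischemia inside the animal. The WI 30 min livers were sampled then, and the SCS 4 h livers after a further 4 h of static cold storage in HTK solution. Livers of the 2 perfused groups were stored cold for 3 h and then machine perfused for 1 h at 4 °C through the portal vein, without an oxygenator in HMP 1 h and with an oxygenated perfusate in HOPE 1 h. No group lacked warm ischemia, and the tissue was taken before any warm reperfusion, so there is no healthy liver and no reperfused liver to compare with. Library totals ran from 15262961 to 18343167 counts. Since these are pieces of whole liver, fewer cells of a type and less RNA per cell cannot be told apart. The hepatocyte markers were present in every liver, with a summed level of 117930 to 188920 CPM, which are counts scaled to the library total with TMM factors.

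In mitochondrial apoptosis, Bax and Bak1 sit at the outer mitochondrial membrane and, once active, form pores through which cytochrome c escapes and starts the caspase cascade. Bcl-2, Bcl-xL (the product of Bcl2l1) and Mcl-1 hold the pore formers in check, and BH3-only proteins such as Bid and Puma (the product of Bbc3) release them. Hepatocytes are known to need Bid to link Fas, the death receptor at the cell surface, to this mitochondrial step, and to rely on Bcl-xL and Mcl-1 for survival. Most of this control acts on proteins, by cleavage, binding and movement to the membrane, which mRNA counts do not measure.

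Of the 7 genes, none passed an adjusted p of 0.05 in any comparison by edgeR's quasi-likelihood test. That held for the test across the 4 groups and all 6 pairs of groups, where the share of all tested genes called was 0%, and for the 6 perfused livers (HMP 1 h and HOPE 1 h) against the 6 unperfused livers (WI 30 min and SCS 4 h), where it was 1.02%. At an unadjusted p under 0.05, the test of the 4 groups picked 2 of the 7, Bcl2l1 and Cycs, against 12.3% of all tested genes. Over the 42 tests of the 7 genes in the 6 pairs, 5 had an unadjusted p under 0.05, all of Bcl2l1 or Cycs. These were 1 gene of the 7 in HOPE over HMP (7.48% of all tested genes), 2 in HMP over WI (13.8%) and 2 in HMP over SCS (14.5%), and the lowest adjusted p of the 42 was 0.167. DESeq2 called 1 of the 7, Bcl2l1, in the test of the 4 groups, against 4.14% of all tested genes. Bcl2l1 and Cycs are therefore described by their values. The 12 livers are separate livers, and the p-values weigh differences between groups against the spread of livers within groups.

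**Figure D1:**
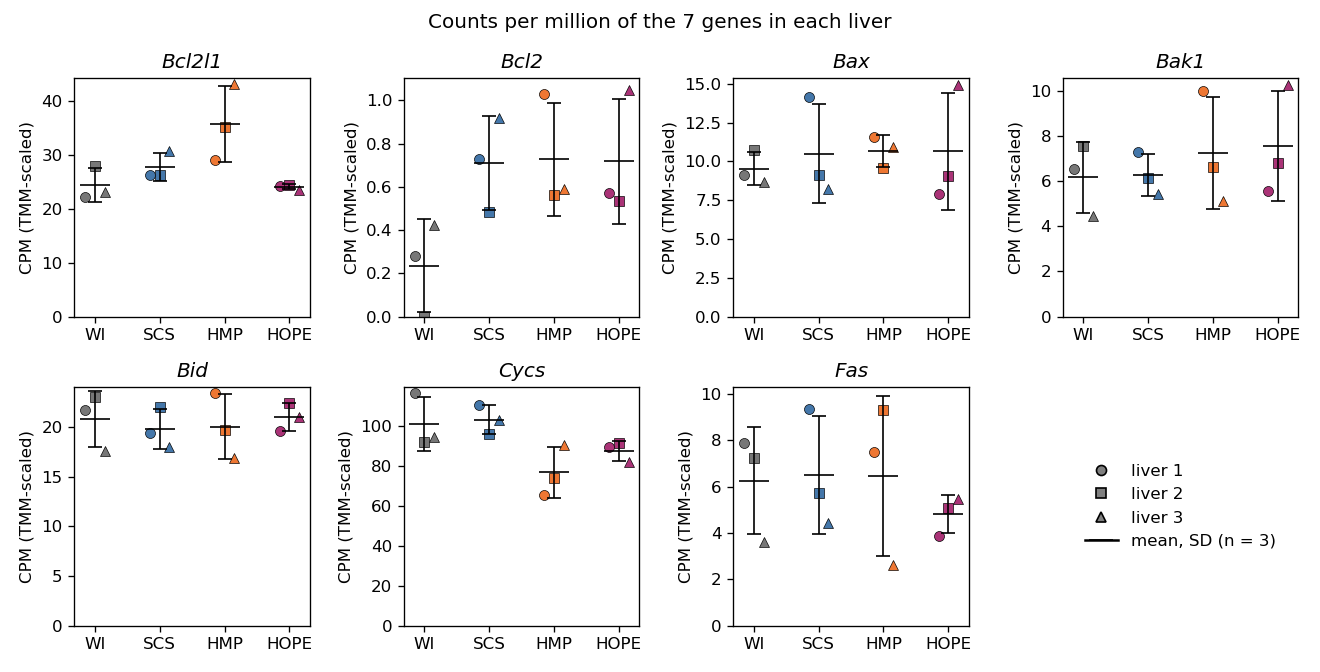
Level of each of the 7 genes in CPM (TMM-scaled, linear axis from 0) in the 3 livers of each group. Circles, squares and triangles are livers 1, 2 and 3, and black bars are the mean and SD (n = 3). Bcl2l1 was at 29.0 to 43.1 CPM in HMP and 23.6 to 24.4 CPM in HOPE, and Cycs was at 65.6 to 91.5 CPM in the perfused livers against 92.0 to 117 CPM in the unperfused livers.

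To compare genes with each other, levels per gene length (FPKM, counts scaled by gene length and library total, as deposited) were used. Cycs stood highest, with a median of 77.0 FPKM over the 12 livers, followed by Bid at 10.1, Bax at 7.34, Bcl2l1 at 6.36, Bak1 at 3.26, Fas at 2.17 and Bcl2 at 0.276 FPKM. Cycs lay above Bid, Bcl2l1 above Bak1, and Fas above Bcl2 in 12 of 12 livers. The neighbours Bid and Bax, and Bax and Bcl2l1, kept this order in only 9 of 12 livers, and Bak1 and Fas in 10 of 12, so these levels overlap. Of the 2 survival genes, Bcl2l1 had 11.2 to 39.4 times the FPKM of Bcl2 in the 11 livers where Bcl2 had a count.

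**Figure D2:**
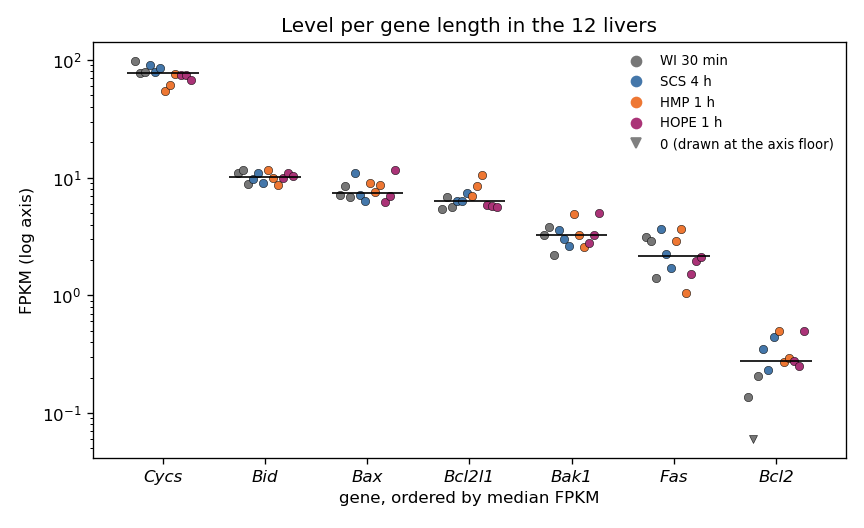
FPKM of the 7 genes in each of the 12 livers on a log axis, with points coloured by group and a black line at the median of each gene. The triangle at the bottom is WI liver 2, where Bcl2 was 0. Cycs lies near 77.0 FPKM and Bcl2 near 0.276 FPKM.

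Among the survival genes, Bcl2l1 (ENSRNOG00000007946, chromosome 3 of Rnor_6.0 from 148259596 to 148313810, minus strand) encodes Bcl-xL, which binds Bax and Bak1 and keeps the outer membrane closed. Its counts were 394, 447 and 382 in WI livers 1 to 3, 468, 436 and 469 in SCS, 507, 562 and 655 in HMP, and 425, 412 and 449 in HOPE. In these raw counts every HMP liver had more than every liver of the other groups. In CPM the HMP livers had 29.0, 35.1 and 43.1, the HOPE livers 24.2, 24.4 and 23.6, the SCS livers 26.2, 26.2 and 30.7 and the WI livers 22.2, 27.9 and 23.1. After scaling, HMP and SCS touched, since SCS liver 3 lay above HMP liver 1, and HOPE was the tightest group.

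The mean Bcl2l1 level was 35.7 ± 7.09 CPM (SD, n = 3) in HMP 1 h and 24.1 ± 0.449 CPM (SD, n = 3) in HOPE 1 h, which differ by whether the perfusate was actively oxygenated. The log2 fold change of HOPE over HMP was −0.57 (standard error 0.152, 95% interval −0.90 to −0.24), with an adjusted p of 0.558 by edgeR. The livers of this pair did not overlap, with HOPE the lower, as for 4.89% of all tested genes. Against WI 30 min, at 24.4 ± 3.08 CPM (SD, n = 3), HMP was higher by a log2 fold change of 0.55 (standard error 0.152, interval 0.22 to 0.88), with an edgeR adjusted p of 0.167 and no overlap, as for 7.57% of genes in that direction. These comparisons share the HMP livers, as does the one with SCS 4 h (27.7 ± 2.57 CPM, SD, n = 3), where the log2 fold change was 0.37 with an edgeR adjusted p of 0.300 and the livers overlapped. HOPE and WI had nearly the same mean, with a log2 fold change of −0.02 and an interval of −0.35 to 0.31. All HOPE livers were below all SCS livers in CPM, as for 10.3% of genes in that direction, with a log2 fold change of −0.20 and an interval of −0.54 to 0.13 that includes 0.

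Without HMP liver 3, which had the highest Bcl2l1 level, the log2 fold change of HOPE over HMP was −0.43, and without HMP liver 1 it was −0.72. DESeq2 called Bcl2l1 across the 4 groups with an adjusted p of 0.0475, in a test that called 4.14% of all tested genes. By edgeR this adjusted p was 0.248, and over all settings and left-out livers it ran from 0.0475 to 0.430.

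Bcl2l1 has 4 promoter windows among the RefSeq transcripts of the build GRCr8, which is not the build of the counts. Bcl-xL is a known target of STAT factors, which bind TTCNNNGAA. The window printed here holds these letters at 2 places, marked in capitals, and the same places lie in a window that overlaps it. The remaining windows of Bcl2l1 do not hold the pattern. Bcl2l1 was taken for printing because it had the smallest p of the 7 genes. The printed letters are chr3:161763386-161763635 on the minus strand, the 250 bases before a transcription start.
Bcl2l1: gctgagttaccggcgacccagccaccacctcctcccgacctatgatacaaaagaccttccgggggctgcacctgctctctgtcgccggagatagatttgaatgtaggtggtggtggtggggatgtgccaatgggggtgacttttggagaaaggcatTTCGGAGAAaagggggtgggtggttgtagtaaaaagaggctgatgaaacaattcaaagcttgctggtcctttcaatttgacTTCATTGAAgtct
This pattern reads the same on both strands and was found in 8.87% of the 33469 promoter windows of the rat, each 300 bases long. The match describes the letters and does not show that a factor binds there.

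Bcl2 (ENSRNOG00000002791, chromosome 13 from 26605426 to 26769374, minus strand), the founding survival gene of the family, had too few counts for its values to be read as more than a description. The counts were 5, 0 and 7 in WI, 13, 8 and 14 in SCS, 18, 9 and 9 in HMP, and 10, 9 and 20 in HOPE, which is 122 in the 12 livers together. The 3 WI livers had the fewest, and each liver of the other groups had more. The count of 5 in WI liver 1 has an exact Poisson interval of 1.62 to 11.7 and the count of 20 in HOPE liver 3 one of 12.2 to 30.9, for counting error only. By the same measure, the count of 0 in WI liver 2 has an interval of 0 to 3.69.

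In CPM, Bcl2 was at 0.235 ± 0.215 (SD, n = 3) in WI, 0.709 ± 0.218 in SCS, 0.728 ± 0.261 in HMP and 0.717 ± 0.288 in HOPE. The log2 fold changes over WI were 1.57 for HOPE (interval −0.02 to 3.17), 1.59 for HMP (interval −0.01 to 3.20) and 1.55 for SCS (interval −0.06 to 3.16), with edgeR adjusted p of 0.586, 0.365 and 0.962. These 3 comparisons share the WI livers, and their livers did not overlap, with WI the lower, as for 8.77%, 7.57% and 7.13% of all tested genes. Between the 3 groups that had further preservation, the log2 fold changes lay between −0.02 and 0.05. Without WI liver 2 the log2 fold change of HOPE over WI was 1.02, and without WI liver 3 it was 2.25. The size therefore depends on which WI livers are included. All 3 WI livers also had the most red blood cell transcripts, with a summed level of 1223 to 1678 CPM over the 2 markers of 5 with a row, against 76.1 to 781 CPM in the others, and the part of this in the Bcl2 values was not tested.

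The pore formers did not differ beyond the spread between livers. Bax (ENSRNOG00000020876, chromosome 1 from 101451802 to 101457207, minus strand), which moves from the cytosol to the mitochondrion, had counts of 162, 172 and 144 in WI, 252, 152 and 126 in SCS, 203, 153 and 166 in HMP, and 139, 153 and 285 in HOPE. The highest values were in single livers of SCS and HOPE, and the remaining livers of all groups overlapped. The means ran from 9.53 ± 1.08 CPM (SD, n = 3) in WI to 10.7 ± 1.04 CPM in HMP. The log2 fold change of HOPE over HMP was 0.00 to 2 decimals, with an interval of −0.56 to 0.55, which is a fold of 0.677 to 1.47.

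Bak1 (ENSRNOG00000000485, chromosome 20 from 5609625 to 5618260, minus strand), which resides in the mitochondrial membrane, had counts of 116, 121 and 74 in WI, 130, 102 and 83 in SCS, 175, 106 and 78 in HMP, and 98, 115 and 196 in HOPE. HMP liver 1 and HOPE liver 3 were highest, while the other 10 livers lay between 4.47 and 7.56 CPM. Perfused over unperfused livers gave a log2 fold change of 0.25 (standard error 0.213, interval −0.22 to 0.71), with an edgeR adjusted p of 0.573, and without these 2 livers it was −0.05. Both are perfused livers with the highest values, so leaving them out had to lower the fold change.

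HMP liver 1 and HOPE liver 3 also had the most transcripts of Kupffer, sinusoidal endothelial and stellate cells. Their summed Kupffer cell markers (8 of 8 with a row) were at 1466 and 962 CPM against 389 to 620 CPM in the other 10 livers, their sinusoidal endothelial markers (7 of 8 with a row) at 929 and 1049 against 401 to 673 CPM, and their stellate cell markers (8 of 8) at 1675 and 1084 against 454 to 938 CPM. None of these markers was at 0 in all livers. The same 2 livers had the highest Bcl2 level, at 1.03 and 1.05 CPM against 0 to 0.916 CPM in the other 10. Bax had 203 and 285 counts there, against 126 to 252 in the other 10. Without these 2 livers, the log2 fold change of HOPE over WI moved from 0.16 to −0.18 for Bax and from 0.29 to −0.01 for Bak1, and neither value passed the test. HOPE liver 3 had the highest CPM of all livers for both genes, so leaving it out had to lower these values. For Bcl2l1 the log2 fold change without them was −0.71 for HOPE over HMP and 0.69 for HMP over WI. HMP liver 1 was the lowest HMP liver for Bcl2l1, so leaving it out had to raise the HMP mean. The part of cell types in the values of these genes was not tested.

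The ratio of Bcl2 to Bax within a liver, which needs no scaling between libraries, was 0 to 11.1 Bcl2 counts per 100 Bax counts. It was 3.09, 0 and 4.86 in WI, 5.16, 5.26 and 11.1 in SCS, 8.87, 5.88 and 5.42 in HMP, and 7.19, 5.88 and 7.02 in HOPE. The HOPE livers lay within the range of the SCS livers and within that of the HMP livers. With 0.5 added to each count, the mean log2 ratio was −3.85 ± 0.147 (SD, n = 3) in HOPE and −4.52 ± 1.55 (SD, n = 9) in the other livers. The difference of 0.67 had an exact two-sided permutation p of 0.482 over 220 assignments, where the smallest possible p is 0.00455. Without WI liver 2 the difference was 0.19.

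**Figure D3:**
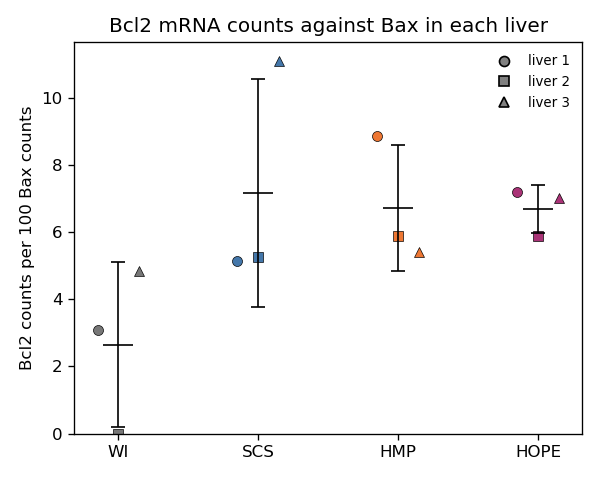
Bcl2 counts per 100 Bax counts in each liver, by group, on a linear axis from 0. Symbols are livers 1 to 3, and bars are the mean and SD (n = 3). The HOPE livers lie between 5.88 and 7.19, inside the range of the SCS livers, and the WI livers are lowest, with WI liver 2 at 0.

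Neither upstream gene differed between groups beyond the spread of the livers. Bid (ENSRNOG00000012439, chromosome 4 from 153442218 to 153465203, minus strand) is cleaved by caspase-8 below Fas and carries the signal to the mitochondrion. It had counts of 385, 369 and 291 in WI, 345, 365 and 275 in SCS, 410, 315 and 257 in HMP, and 344, 378 and 401 in HOPE. It varied least of the 7 genes, with the highest liver at 1.39 times the lowest in CPM. The 4 means lay between 19.8 ± 2.02 CPM (SD, n = 3) in SCS and 21.0 ± 1.40 CPM (SD, n = 3) in HOPE, and the interval of the log2 fold change of perfused over unperfused livers was −0.22 to 0.25.

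Fas (ENSRNOG00000019142, chromosome 1 from 252589785 to 252624790, plus strand), the receptor for Fas ligand, had counts of 140, 116 and 60 in WI, 167, 95 and 68 in SCS, 131, 149 and 40 in HMP, and 68, 86 and 104 in HOPE. The HMP livers alone spanned 2.63 to 9.31 CPM, a range that holds the means of all 4 groups. The mean was 4.81 ± 0.829 CPM (SD, n = 3) in HOPE and 6.26 to 6.51 CPM in the other groups. The log2 fold change of HOPE over HMP was −0.43 (standard error 0.438, interval −1.39 to 0.53), with an edgeR adjusted p of 0.873, and a fold interval of 0.383 to 1.44. Faslg, the gene of its ligand, did not pass the filter on low counts.

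Downstream of the pore, Cycs (ENSRNOG00000010452, chromosome 4 from 80331227 to 80333326, minus strand) encodes cytochrome c, an electron carrier of the respiratory chain that assembles the apoptosome once it reaches the cytosol. Its counts were 2067, 1472 and 1562 in WI, 1968, 1592 and 1574 in SCS, 1148, 1185 and 1377 in HMP, and 1566, 1544 and 1562 in HOPE. In CPM the values were 117, 92.0 and 94.4 in WI, 110, 95.8 and 103 in SCS, 65.6, 74.0 and 90.6 in HMP, and 89.2, 91.5 and 81.9 in HOPE. Each of the 6 perfused livers lay below each of the 6 unperfused livers, although WI liver 2 and HOPE liver 2 differed by less than 1 CPM. The separation held for FPKM and 2 other scalings and not for raw counts, where the libraries differ in size.

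Perfused livers had a mean Cycs level of 82.1 ± 10.5 CPM (SD, n = 6) and unperfused livers 102 ± 9.79 CPM (SD, n = 6). Their log2 fold change was −0.32 (standard error 0.0994, interval −0.53 to −0.10), with an edgeR adjusted p of 0.144, and 1.21% of all tested genes separated these livers in that direction. HMP had the lowest level and did not overlap WI or SCS, as for 8.45% and 10.6% of genes in that direction. Its log2 fold change was −0.40 over WI (edgeR adjusted p of 0.265) and −0.43 over SCS (adjusted p of 0.204), and that of HOPE was −0.21 over WI (adjusted p of 0.702) and −0.24 over SCS (adjusted p of 0.579), again without overlap, as for 7.42% and 10.3% of genes. HOPE over HMP had a log2 fold change of 0.19 with an interval of −0.12 to 0.50. Without HMP liver 1 and HOPE liver 3 together the difference between perfused and unperfused livers was −0.24, and leaving out single livers gave −0.38 to −0.26.

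Cycs has a near-identical copy, LOC100363502 (cytochrome c, somatic-like, chromosome 18 from 62476383 to 62476700), and reads of the coding part could be counted for either, so the Cycs level is uncertain to that extent. The copy had 21.7 to 30.6 counts for every 100 Cycs counts. Its log2 fold change of perfused over unperfused livers was −0.35 (edgeR adjusted p of 0.186), and that of the summed counts was −0.32. Unlike those of Cycs, the perfused and unperfused livers overlapped for the copy. Its log2 fold change was −0.67 for HMP over WI, −0.19 for HOPE over WI, −0.04 for HOPE over SCS and 0.48 for HOPE over HMP. None of these had an edgeR adjusted p under 0.05.

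The promoter of Cycs is shown because cytochrome c is a known target of nuclear respiratory factor 1 (NRF-1), which binds GCGCATGC. The 250 bases before the RefSeq start (GRCr8, chr4:80984768-80985017, minus strand) hold this pattern once, in capitals and as its reverse complement, 157 bases before the start.
Cycs: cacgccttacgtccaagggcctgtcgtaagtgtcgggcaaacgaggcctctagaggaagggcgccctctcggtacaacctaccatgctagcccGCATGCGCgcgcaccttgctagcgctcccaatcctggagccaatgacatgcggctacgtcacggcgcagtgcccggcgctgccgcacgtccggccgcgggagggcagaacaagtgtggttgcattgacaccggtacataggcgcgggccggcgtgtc
On either strand the pattern occurred in 2.47% of the 33469 windows of all genes, and in none of the windows of Bak1, Bcl2, Bcl2l1, Bid and Fas. Bax was not matched. The hypoxia core ACGTG, in 19.3% of windows, was found for Cycs, Bcl2 and 1 window of Bcl2l1, and the Sp1 letters GGGCGG, in 33.1% of windows, for Bak1, Bid, Fas and 1 window of Bcl2l1. No binding was measured in these livers, and nothing follows from these letters for any factor.

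**Figure D4:**
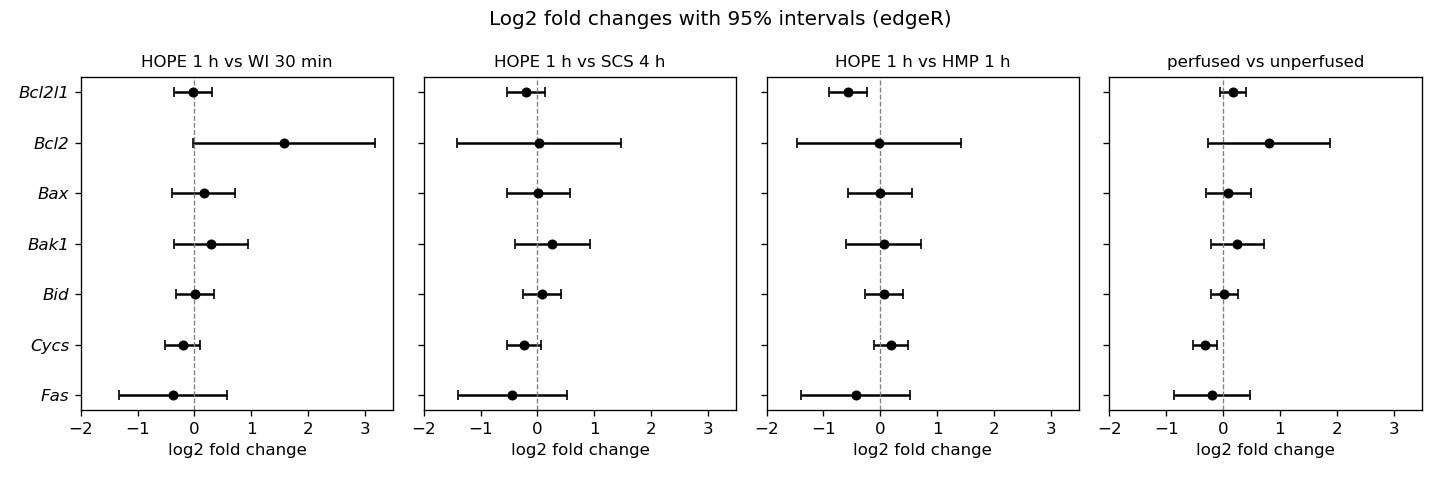
Log2 fold change (points) and 95% interval (bars) from edgeR for the 7 genes in 4 comparisons, with the dashed line at no difference. The Bcl2l1 interval lies below 0 for HOPE against HMP (−0.90 to −0.24) and the Cycs interval for perfused against unperfused livers (−0.53 to −0.10), both before adjustment over all genes, while the Bcl2 intervals are the widest.

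The wider apoptosis pathway was read from 8 lists with 65 genes, of which 60 had a row and 56 were tested. Of the 56, none passed the adjusted p of 0.05 by edgeR in any comparison. At an unadjusted p under 0.05, the comparison of HMP 1 h with WI 30 min picked 16 of the 56 (28.6%), against 13.8% of all tested genes. Without HMP liver 1, which stood apart in its Kupffer, endothelial and stellate markers, it picked 12 (21.4%), against 11.5%. The other pairs picked 4 (7.14%, against 8.57%) in HOPE over WI, 6 (10.7%, against 10.9%) in HOPE over SCS and 7 (12.5%, against 7.48%) in HOPE over HMP. HMP over SCS gave 9 (16.1%, against 14.5%), SCS over WI gave 2 (3.57%, against 4.77%), the test of the 4 groups 8 (14.3%, against 12.3%), and perfused against unperfused livers 10 (17.9%, against 17.7%). The median log2 fold change of the 56 genes was 0.11 in HMP over WI and 0.09 in perfused against unperfused livers, beside 0.03 for all tested genes in both.

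The mitochondrial death factors, which include Cycs, had a negative log2 fold change in perfused against unperfused livers in 7 of 7, beside 6203 of the 13687 tested genes, with a median of −0.19 beside 0.03. Other lists were as one-sided there, since 4 of 4 anti-apoptotic, 3 of 3 pore former and 4 of 4 BH3-only genes were positive, and no list was tested as a whole. The death factors were positive in 7 of 7 in HOPE over HMP (median 0.19) and in 6 of 7 in SCS over WI, and negative in 5 of 7 in HOPE over WI, 6 of 7 in HOPE over SCS and 7 of 7 in HMP over either. These comparisons share livers. Cycs and the outer membrane channel Vdac1 (−0.22) had an unadjusted p under 0.05 in perfused against unperfused livers. Diablo, whose product frees caspases from their inhibitors, had 15.8, 14.9 and 20.4 CPM in WI, 15.3, 13.9 and 17.0 in SCS, 14.4, 12.2 and 11.4 in HMP, and 16.0, 16.8 and 15.3 in HOPE. All HMP livers were below all WI livers, as for 8.45% of all tested genes. They were also below all HOPE livers, and 6.22% of all tested genes were higher in each HOPE than in each HMP liver. HOPE over HMP had a log2 fold change of 0.34 (edgeR adjusted p of 0.663). Aifm1, a flavoprotein of the mitochondrial intermembrane space, had 61.8, 71.4 and 77.8 CPM in HMP and 82.0, 90.4 and 73.0 CPM in HOPE, and these overlapped.

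Of the other survival genes, Bcl2l2 (Bcl-w) was steady, at 31.7 to 40.1 CPM in all 12 livers, with a log2 fold change of 0.03 in perfused against unperfused livers and an interval of −0.16 to 0.22. Bcl2a1, a survival gene of blood-derived cells, was at 7.26 CPM in HMP liver 1 and 1.09 to 2.58 CPM in the other livers. Among the remaining pore former and BH3-only genes, Bok followed the same liver, at 6.97 CPM against 0.937 to 3.31 CPM. Bmf had a log2 fold change of 0.75 and Bad one of 0.34 in HMP over WI, with edgeR adjusted p of 0.328 and 0.356.

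Among caspases and their substrates, Dffa, the inhibitor of the nuclease that cuts DNA in dying cells, had 12.3, 16.5 and 13.7 CPM in HOPE and 8.13, 10.1 and 9.95 CPM in SCS. The HOPE livers were all above the SCS livers, as for 8.97% of genes in that direction. This was a log2 fold change of 0.59 (standard error 0.160), with an edgeR adjusted p of 0.287. Casp12, a caspase linked to the endoplasmic reticulum, ranged from 1 to 95 counts over the 12 livers and from 8 to 95 within HOPE alone. Casp6, an executioner caspase, ranged from 10 to 192 counts and was called by DESeq2 in perfused against unperfused livers, with a log2 fold change of −2.02 and an adjusted p of 0.154 by edgeR. It is named after its values were seen.

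Ripk3, the kinase of necroptosis, had 18, 20 and 22 counts in WI, 61, 28 and 34 in SCS, 128, 46 and 29 in HMP, and 27, 41 and 62 in HOPE. All WI livers were below all others, and HMP liver 1 was highest. In this direction 7.57% of all tested genes separated in HMP over WI, 7.13% in SCS over WI and 8.77% in HOPE over WI. In HMP over WI, Ripk3 differed by 1.75 on the log2 scale (standard error 0.498), with an edgeR adjusted p of 0.175. Tnfsf10, which encodes the death ligand TRAIL, was highest in HMP liver 1 and HOPE liver 3, at 43.9 and 36.3 CPM against 16.1 to 27.6 CPM in the others. Among the inhibitors, Xiap was lower in each HMP liver (28.4 to 38.4 CPM) than in each WI liver (45.2 to 62.0 CPM), as for 8.45% of all tested genes, and Birc2 was higher in each HOPE liver than in each HMP liver, as for 6.22%, with log2 fold changes of −0.55 and 0.43 and edgeR adjusted p of 0.263 and 0.636.

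Of the p53 targets, Gadd45a, which responds to DNA damage and stress, had 31.0, 54.0 and 17.6 CPM in WI, 28.7, 20.4 and 15.6 in SCS, 15.9, 15.3 and 9.15 in HMP, and 14.4, 20.9 and 15.5 in HOPE. All HMP livers were below all WI livers, as for 8.45% of all tested genes, with a log2 fold change of −1.34 (standard error 0.371), with an edgeR adjusted p of 0.165. DESeq2 called Gadd45a and Ripk3 in this pair, where it called 2.85% of all genes, and Gadd45a and Casp6 in perfused against unperfused livers, where it called 5.36%. Sesn2, a stress-induced regulator of growth signalling, was at 53.8, 78.6 and 58.5 CPM in HMP and 44.2, 27.2 and 51.8 CPM in HOPE, with no overlap, as for 4.89% of all tested genes in that direction, a log2 fold change of −0.63 for HOPE over HMP and an edgeR adjusted p of 0.592.

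**Figure D5:**
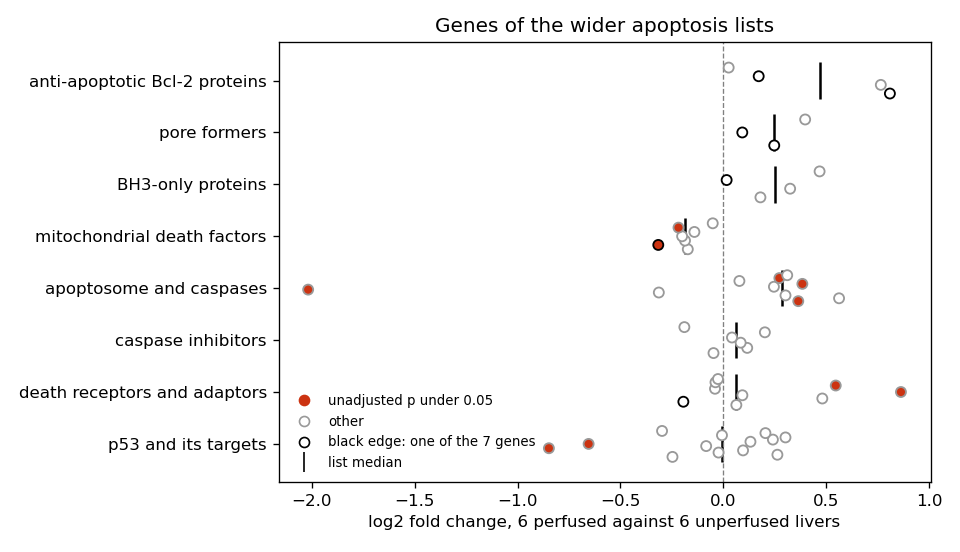
Log2 fold change of 6 perfused against 6 unperfused livers for each of the 56 tested apoptosis genes, by list. Red points had an unadjusted p under 0.05 by edgeR, black edges mark the 7 genes described first, and short vertical lines are list medians. The 7 mitochondrial death factors lie left of 0, as do 6203 of all 13687 tested genes, and the anti-apoptotic, pore former and BH3-only genes lie right of 0.

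The genes whose log2 CPM followed each of the 7 genes most closely over the 12 livers were Cyth2 for Bax (Pearson's r of 0.953), C1qtnf6 for Bak1 (0.943), Dsel for Bcl2 (0.907), mrpl9 for Bcl2l1 (0.940), Cldn15 for Bid (0.885), AABR07012795.1 for Cycs (0.957) and Plekha8 for Fas (0.902). The next were Gpank1 for Bax (0.831), Paqr4 for Bak1 (0.924), Fcnb for Bcl2 (0.877), Gamt for Bcl2l1 (0.926), LOC102546648 for Bid (0.844) and Ptges3 for Cycs (0.953). These are the highest among those of the 13687 tested genes that have a symbol. They share libraries and scaling, so they are descriptions only. Among the 7 genes themselves, the closest pairs were Bak1 with Bid (0.718) and Bax with Bak1 (0.712). The lowest value was that of Bak1 with Cycs (−0.464), and Bcl2l1 had its lowest with Bid (−0.417).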

How the data were processed

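The authors aligned paired-end reads with Hisat2 to Rnor_6.0, the build in the submitters' processing notes, and deposited the raw count of every gene in each liver. The authors also deposited FPKM (counts scaled by gene length and library total), used here only for levels between genes and for 1 alternative. Neither the tool that counted reads nor its use of strand is given in the sources used here, so reads of overlapping genes cannot be told apart. The authors' log2 fold changes and p-values per comparison, with their group means, also deposited, were not used.

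Genes kept by filterByExpr (13687 of 33744, 20213 having at least 1 count) entered edgeR 4.0.16 (R 4.3.3) with TMM factors and its quasi-likelihood F test. A single fit held all 12 livers, with 8 residual and 3.86 prior degrees of freedom. Adjusted p-values are Benjamini-Hochberg over all tested genes. The Bcl2 to Bax ratio was tested by exact permutation of the livers. Depth was 15262961 to 18343167 counts per liver, and intervals from single counts cover counting error only.

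The genes and lists were chosen with earlier results of these data known. Named genes are the 9 of the family, the 2 further genes per list with the smallest p across the 4 groups, and any gene called. Also named are the 2 tested genes with a symbol most alike each of the 7. A gene of the latter is not reported here. Casp6, Vdac1 and Faslg were named after their values were seen. Promoter letters are those of RefSeq for GRCr8, where 6 of the 7 genes matched. Other settings tried were DESeq2 1.42.0, an unadjusted p, RLE factors, all genes without a filter, fits of only the 2 groups of a pair, the replicate number as a block, other added counts or FPKM for the ratio, leaving out livers, and, chosen after seeing the data, Cycs summed with its copy and the count of apoptosis genes in HMP over WI without HMP liver 1. The pipeline was tested on simulated data.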

Additional observations from a re-analysis of the deposited data

How the results depend on the processing

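DESeq2 called 1 of the 7 genes across the 4 groups (Bcl2l1, adjusted p of 0.0475), the same 1 of the 56 apoptosis genes, against 4.14% of all tested genes. It called 2 of the 56 in perfused against unperfused livers, against 5.36% of all tested genes, and edgeR called 0 of the 56 there. At an unadjusted p under 0.05, edgeR picked 2 of the 7 across the 4 groups (12.3% of all tested genes) and 1 in HOPE 1 h against HMP 1 h (7.48%). It picked 2 in HMP 1 h against WI 30 min (13.8%), 2 in HMP 1 h against SCS 4 h (14.5%) and 1 in perfused against unperfused livers (17.7%). Of the 56 it picked 8 across the 4 groups (12.3%), 6 in HOPE 1 h against SCS 4 h (10.9%) and 10 in perfused against unperfused livers (17.7%). The counts were 16 in HMP over WI (13.8%), 9 in HMP over SCS (14.5%) and 7 in HOPE over HMP (7.48%). The cause of these differences was not tested. Under RLE factors, without a filter, and with Cycs summed with its copy, 0 of the 7 and 0 of the 56 were called. The same held in fits of only the 2 groups of a pair and without each liver in turn, so these settings test no direction. They called few genes of any kind. Across the 4 groups, RLE factors called 0 of 13687 genes, no filter 28 of 20213 and the summed counts 0 of 13686. In perfused against unperfused livers these settings called 145, 197 and 140. Fits of only 2 groups called at most 5 of 13147 genes. Leaving out single livers called at most 166 of 14055, in perfused against unperfused livers without WI liver 3. Livers with the same replicate number deviated together with r of −0.189 to 0.143 over 18 pairs, beside −0.225 to 0.329 over 36 pairs with other numbers. No pairing by number was seen, and this check cannot exclude one. With the replicate number as a block, 0 of the 7 genes were called in any comparison. Of all 13687 tested genes, this setting called 66 in perfused against unperfused livers. It called 0 across the 4 groups and at most 1 in a pair. The difference in the Bcl2 to Bax ratio ran from 0.19 to 0.85 when each liver was left out, was 0.44 with 2 added to each count and 0.75 with FPKM, and had p from 0.37 to 0.6 when single livers were left out. Summing rows that share a symbol did not apply, since each gene had 1 row, and the block was not applied to the ratio. Depth limits Bcl2 most, with 0 to 20 counts per liver.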
